A study of Homo sapiens with 6 samples.

Results

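The 10 genes described here restrain or accompany the mitogen-activated protein kinase (MAPK) pathway: the phosphatase genes DUSP1, DUSP4, DUSP5 and DUSP6, the RAS pathway inhibitor genes SPRY2, SPRY4 and SPRED1, and the immediate early genes IER2, IER3 and PHLDA1. They were taken by name, and the choice was made with the values of this comparison in view, so their differences between groups are given as a description without a test. All 10 names were listed, among 12180 genes in all, and all 10 were among the 12017 genes tested. They had 14 of the 33090 listed transcripts. RNA was sequenced from TE1 cells (TE-1 in the sample labels), an established human line of esophageal squamous cell carcinoma (ESCC), in 3 NC and 3 FGL1-OE libraries. FGL1-OE cells overexpressed FGL1, a secreted fibrinogen-like protein, from a lentiviral vector. NC cells of the paper carried a lentiviral vector with a nonsense sequence, but the labels of these NC libraries read WT. Whether the sequenced controls carried the vector was not stated. If they did not, vector and selection cannot be told apart from FGL1. The paper describes its modified lines as stable and selected with puromycin, and no time or dose was given.

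Growth factor receptors switch on RAS, which passes the signal through the kinases RAF and MEK to ERK. Active ERK induces immediate early genes and also the genes of its own inhibitors, so that the signal is limited by negative feedback. DUSP phosphatases remove phosphate from ERK, JNK or p38, whereas SPRY and SPRED proteins act higher up, between the receptor and RAF. In squamous carcinomas this pathway often lies downstream of EGFR. Many of these messages are short-lived, and AUUUA elements (ATTTA in DNA letters) are one known feature of unstable messages.

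FGL1 checked the labels. The NC libraries held 0.0202, 0 and 0.106 FPKM, a fragment count scaled to transcript length and library depth, and the FGL1-OE libraries 33.5, 39.3 and 39.9 FPKM. The log2 fold change of FPKM + 1 was 5.21 (SE 0.15), with a Benjamini-Hochberg adjusted p = 1.29e-05 in limma. The exact two-sided permutation p was 0.1, the smallest that 3 against 3 libraries can give. Nothing in the labels says that the libraries came from separate cultures, so p-values measure the spread between libraries, which may be technical. Of the squamous markers, 7 of 9 were listed and KRT14 and PKP1 were not. The summed level of those listed was 410 to 685 FPKM in NC and 576 to 667 FPKM in FGL1-OE. SFN held the largest part of it, at 198 to 459 FPKM in NC and 305 to 378 FPKM in FGL1-OE. KRT6A was abundant and higher in FGL1-OE (183 to 197 FPKM) than in NC (108 to 160 FPKM), and its part in the results was not tested. KRT5 lay at 4.27 to 6.24 FPKM and TP63 under 1 FPKM in every library. Of the markers of other cell types, 3 of 6 fibroblast markers, 1 of 5 leukocyte markers and 0 of 4 endothelial markers were listed. Their summed levels reached at most 8.27 FPKM for fibroblasts and 0.854 FPKM for leukocytes. The NC libraries were less alike than the FGL1-OE libraries, with correlations across genes of 0.885 to 0.964 against 0.981 to 0.986.

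The sequences that follow belong to the 2 genes with the largest differences. The first is the DUSP1 promoter from RefSeq, 300 bases on GRCh38.p14 at chr5:172771146-172771445, minus strand, running 5′ to 3′ across the transcript start. Capitals mark matches to the searched motifs, and overlapping matches run together.

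DUSP1 promoter: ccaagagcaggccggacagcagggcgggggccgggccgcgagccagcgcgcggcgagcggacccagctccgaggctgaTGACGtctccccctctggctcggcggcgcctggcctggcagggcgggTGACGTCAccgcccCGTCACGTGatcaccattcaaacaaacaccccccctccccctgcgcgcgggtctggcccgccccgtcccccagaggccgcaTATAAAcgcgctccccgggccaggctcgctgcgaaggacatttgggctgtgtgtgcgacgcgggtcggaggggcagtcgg

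Each of 7 motifs was searched on both strands. TGACGTCA is the full cAMP response element and CGTCA its core. TGANTCA is the letter pattern of AP-1 sites and CCGGAAGT that of ETS factors. The TATA box was searched as TATAAA and the E-box was searched as the letters CACGTG. The CArG box of serum response factor was searched by its usual pattern. TGACGTCA contains CGTCA on each strand, so the same bases count for both. The DUSP1 window held 1 TGACGTCA, starting 125 bases before the transcript start. It held 4 CGTCA matches in all, 1 TATAAA 30 bases before the start and 1 CACGTG, and no AP-1, ETS or CArG match. Of the 35116 RefSeq promoters of this length, 1.85% held TGACGTCA, 24.6% CGTCA, 11.5% TATAAA and 7.26% CACGTG. AP-1, ETS and CArG matches were in 7.71%, 4.14% and 1.29% of them. Promoters were matched for 7 of the 10 genes, and those of IER3, DUSP4 and DUSP5 were not searched. Besides DUSP1, a single CGTCA match was found in the windows of IER2, SPRY4 and 1 of the 3 SPRY2 starts, and no motif of the 7 was found in those of DUSP6, PHLDA1 and SPRED1. These matches describe letters in a window and are not measured binding sites.

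The second sequence is the 112-base segment of IER3 at chr6:30744197-30744308 on GRCh38, minus strand, read from GENCODE v29. It is spliced out of transcript IER3-201 and kept in the single-exon transcript IER3-202, and it is shown because the listed IER3 transcripts differed by it. Capitals mark the GT and AG at its ends.

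IER3 segment: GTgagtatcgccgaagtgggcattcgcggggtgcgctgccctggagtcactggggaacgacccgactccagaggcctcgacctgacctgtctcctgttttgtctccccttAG

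IER3, an immediate early gene whose protein affects cell survival and ERK dephosphorylation, had the largest difference of the 10. The gene lies on chromosome 6 (GRCh37, 30710976 to 30712331). Its level was 33.1, 33.9 and 35.9 FPKM in NC and 79.7, 68.4 and 70.2 FPKM in FGL1-OE. Every FGL1-OE library was thus above every NC library. The means were 34.3 ± 1.42 (SD, n = 3) and 72.8 ± 6.08 FPKM (SD, n = 3), a ratio of 2.12. On the log2(FPKM + 1) scale the difference was 1.06 (SE 0.14), which ranked 26 of all genes tested. In bulk RNA, more cells with a message and more message per cell cannot be told apart.

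DUSP1, the nuclear phosphatase that acts on p38, JNK and ERK, came next. It lies on chromosome 5 (GRCh37, 172195093 to 172198198). NC libraries held 26.9, 22.0 and 24.4 FPKM and FGL1-OE libraries 41.1, 40.7 and 40.9 FPKM. The FGL1-OE libraries were nearly equal and all lay above NC. Means were 24.4 ± 2.47 and 40.9 ± 0.172 FPKM (SD, n = 3 each), a ratio of 1.68 and a log2 difference of 0.73 (SE 0.14). This difference ranked 63 among all genes tested.

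DUSP4, a second nuclear phosphatase of ERK and JNK, lies on chromosome 8 (GRCh37, 29190581 to 29208185). Its libraries also did not overlap, but the gap was small. It was measured at 8.70, 7.94 and 8.60 FPKM in NC and 10.3, 10.1 and 10.6 FPKM in FGL1-OE. The ratio of means was 1.23 and the log2 difference 0.27 (SE 0.14), and 8.35% of all genes had a larger one. DUSP1, DUSP4 and IER3 were the 3 of 10 genes whose groups did not overlap. Among all genes tested, every FGL1-OE library was above every NC library in 4.09%.

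The other two DUSP genes overlapped between groups. DUSP5 encodes a nuclear phosphatase selective for ERK and lies on chromosome 10 (GRCh37, 112257596 to 112271302). It gave 4.65, 6.55 and 5.06 FPKM in NC and 6.27, 5.85 and 6.19 FPKM in FGL1-OE, a log2 difference of 0.16 (SE 0.16). NC 2 was the highest library of all 6. DUSP6, which acts on ERK in the cytoplasm, lies on chromosome 12 (GRCh37, 89741009 to 89747048). It gave 0.811, 1.87 and 0.973 FPKM in NC and 1.55, 1.68 and 1.43 FPKM in FGL1-OE, with a log2 difference of 0.23 (SE 0.20). Here too NC 2 was above every FGL1-OE library, while NC 1 and NC 3 were below them.

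SPRY2, SPRY4 and SPRED1, inhibitors that act on RAS and RAF signaling, all overlapped between groups. SPRY2 (chromosome 13, GRCh37, 80910111 to 80915086) measured 4.04, 5.18 and 5.88 FPKM in NC and 5.25, 5.30 and 6.22 FPKM in FGL1-OE. Its log2 difference was 0.14 (SE 0.17). SPRED1 (chromosome 15, GRCh37, 38544527 to 38649450), whose protein works together with neurofibromin, measured 1.95, 2.74 and 2.10 FPKM in NC and 2.45, 2.63 and 2.49 FPKM in FGL1-OE. Its log2 difference was 0.12 (SE 0.15), the smallest of the 10. SPRY4 (chromosome 5, GRCh37, 141689992 to 141706020) was near the lower end of the table. NC 1 held 0.0700 FPKM, against 1.23 and 0.924 FPKM in the other NC libraries and 1.07, 1.18 and 1.31 FPKM in FGL1-OE. Its log2 difference of 0.39 (SE 0.27) rested on NC 1: it was 0.076 without that library. In NC 1 the single listed SPRY4 transcript was at 0, and such a 0 can be a failed estimate.

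IER2, an immediate early gene, varied more within groups than between them. It lies on chromosome 19 (GRCh37, 13261229 to 13265722). NC libraries gave 6.55, 9.78 and 19.9 FPKM, against 5.82, 19.0 and 19.3 FPKM in FGL1-OE. NC 1 and FGL1-OE 1 were the low libraries. The log2 difference was 0.23 (SE 0.51), 0.76 without FGL1-OE 1 and -0.096, -0.021 and -0.032 without NC 1, FGL1-OE 2 and FGL1-OE 3. PHLDA1, a pleckstrin homology-like protein induced by ERK signaling, lies on chromosome 12 (GRCh37, 76419227 to 76427712). It measured 5.50, 10.8 and 6.72 FPKM in NC and 9.93, 9.67 and 6.35 FPKM in FGL1-OE. The highest library was NC 2, and FGL1-OE 3 was below NC 3. The log2 difference was 0.18 (SE 0.27) and -0.0095 without NC 1.

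**Figure D1:**
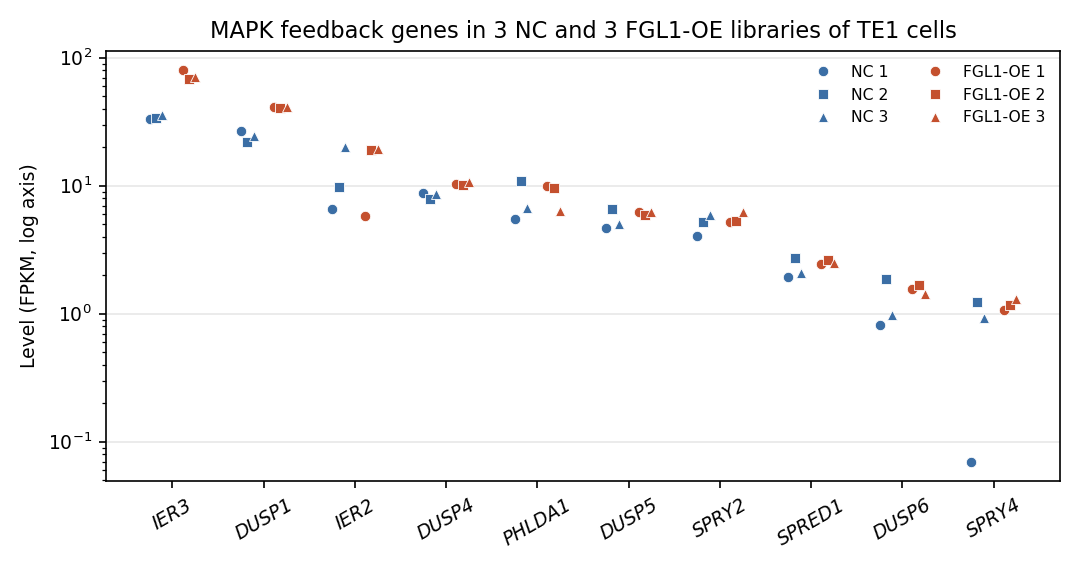
Level of each MAPK feedback gene in FPKM on a log axis, with 1 point per library and genes ordered by mean level. IER3 and DUSP1 were the highest genes and their NC and FGL1-OE points were clearly apart, whereas SPRY4 in NC 1 was at 0.0700 FPKM, far below its other libraries.

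All 10 log2 differences were positive, and 53.7% of all genes tested had a positive one. Their median was 0.23, and that of all genes tested was 0.016. Without NC 1 the median was 0.072, and IER2 and PHLDA1 were negative. Without NC 2 the median was 0.35, 7 of the 10 genes did not overlap, and 42.8% of all genes did not overlap in either direction. None of the 10 passed an adjusted p of 0.05 in limma, and the share of all genes that did was 0.00832%, which is FGL1. At an unadjusted p under 0.05 there were 2 of the 10, DUSP1 and IER3, both higher. The share of all genes was 1.21% in that direction and 2.01% in either direction, which is 242 genes. An ordinary linear model gave 0 of the 10 adjusted and 3 unadjusted, beside 374 of all genes. In limma there were 3 of the 10 with the GC trend removed, beside 726 of all genes, and 4 without NC 2, beside 2618. Because the genes were chosen on this same contrast, their p-values are not valid as a test of them. The shares stand beside the counts, and nothing was read from either.

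**Figure D2:**
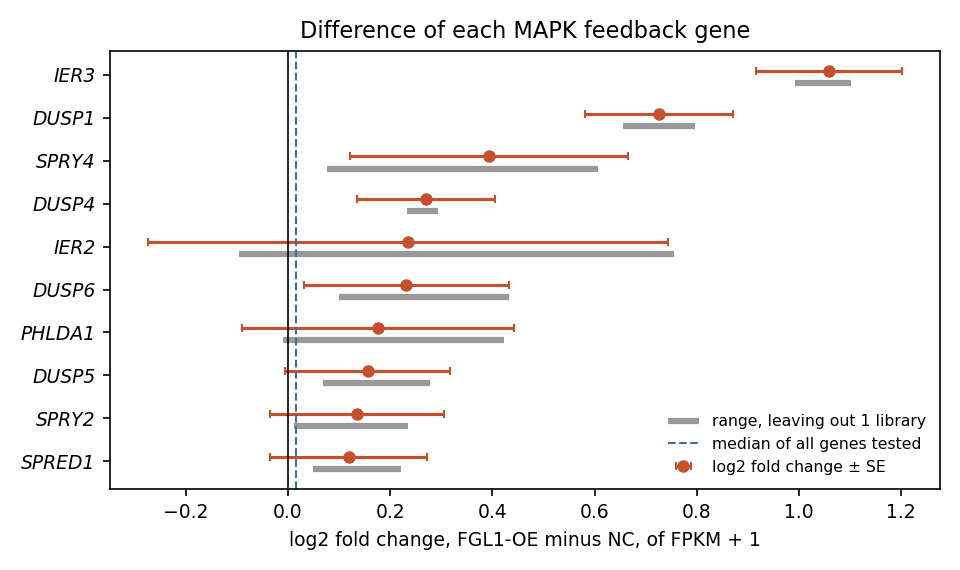
Log2 fold change of FPKM + 1 (FGL1-OE minus NC) of each gene with its SE, with a grey bar for the range when each library was left out in turn and a dashed line for the median of all genes tested, 0.016. IER3 at 1.06 and DUSP1 at 0.73 had narrow ranges, while the range of IER2 ran from -0.096 to 0.76.

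The levels of the genes, which FPKM gives per length, differed far more than the groups did. In both groups the order from high to low was IER3, DUSP1, IER2, DUSP4, PHLDA1, DUSP5, SPRY2, SPRED1, DUSP6 and SPRY4. IER3 stood at the 90.8th percentile of all genes in NC and the 96.4th in FGL1-OE. DUSP1 moved from the 86.2nd to the 92.5th percentile, and SPRY4 lay at the 4.32nd and 11.8th. In NC the neighbours IER2 and DUSP4, DUSP4 and PHLDA1, PHLDA1 and DUSP5, DUSP5 and SPRY2, and DUSP6 and SPRY4 overlapped in their libraries. In FGL1-OE only IER2 and DUSP4, and DUSP5 and SPRY2, did so.

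Spread within a group was larger in NC than in FGL1-OE for 8 of the 10 genes, IER2 and IER3 being the exceptions, and for 84.1% of all genes. The median SD of log2(FPKM + 1) over all genes was 0.308 in NC and 0.121 in FGL1-OE. NC 1 was the lowest of the 6 libraries for 7 of the 10 genes. Between NC 1 and NC 2, the log2 difference of all genes fell with GC content, with Spearman's rho = -0.788 across 11773 genes, which are not independent replicates. Across the 10 genes alone, rho was -0.164, without a test. NC 1 was below NC 2 for 8 of the 10 genes, all but DUSP1 and DUSP4, and for 55.4% of all genes. SPRY4 differed between these NC libraries by 1.06, PHLDA1 by 0.87, DUSP6 by 0.67 and IER2 by 0.51 on the log2 scale. By contrast, IER3 differed by 0.033, DUSP4 by -0.12 and DUSP1 by -0.28. With the GC trend removed from every library, the median difference of the 10 genes between groups was 0.21 and 3 did not overlap. The share of all genes without overlap in either direction was then 13.7%, against 7.15% before.

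**Figure D3:**
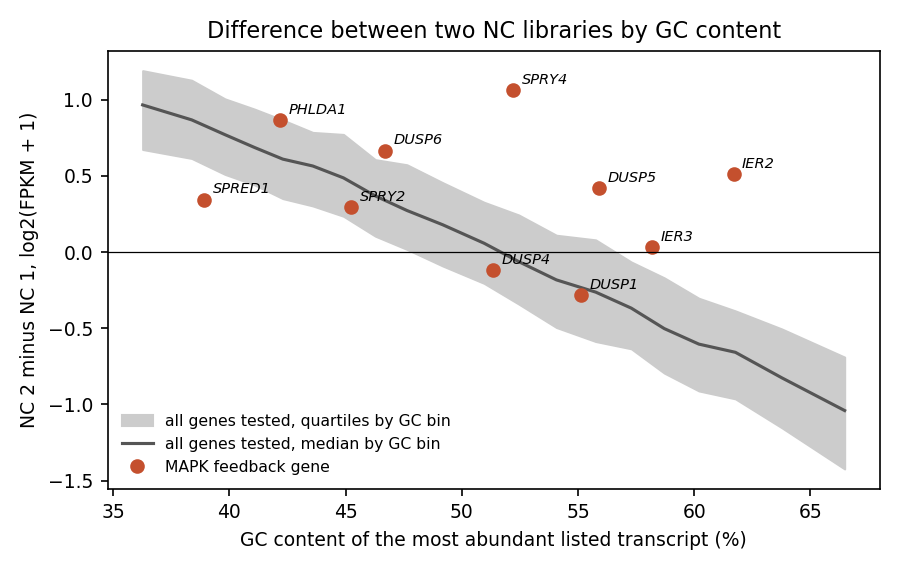
Log2 difference between NC 2 and NC 1 against the GC content of the most abundant listed transcript (%), with the median and quartiles of all genes in bins and 1 point per MAPK feedback gene. The median over all genes went from 0.97 in the lowest GC bin to -1.04 in the highest, and SPRY4, IER2 and DUSP5 were among the genes above the quartile band.

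The transcript table separated the libraries in another way. IER3-201 held 33.0, 32.6 and 35.1 FPKM in the NC libraries, against 78.6, 67.3 and 0.00692 FPKM in FGL1-OE. IER3-202, which keeps the segment printed above, held 2.88, 4.03 and 3.72 FPKM in the NC libraries, against 7.62, 6.63 and 70.5 FPKM in FGL1-OE. Nearly all IER3 signal of FGL1-OE 3 was thus assigned to IER3-202, while its share was 8.03% to 11.0% in NC and 8.84% and 8.96% in the other FGL1-OE libraries. The sum over both transcripts did not show this break, and the gene value of FGL1-OE 3 lay between those of the other FGL1-OE libraries. IER2 behaved likewise in FGL1-OE 1, where IER2-201 was listed at 7.18 FPKM and IER2-203 at 0.520 FPKM. IER2-201 was listed at 0 in the other 5 libraries, and IER2-203 ran from 6.21 to 20.9 FPKM there. FGL1-OE 1 was also the lowest library for the IER2 gene value.

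**Figure D4:**
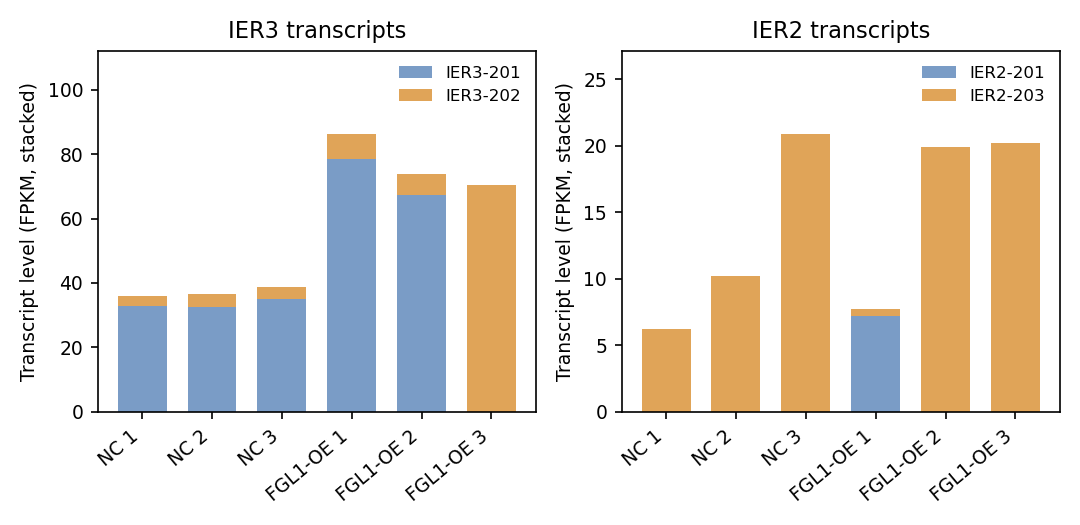
Stacked FPKM of the listed transcripts of IER3 (left) and IER2 (right) in each library. IER3-202 carried 70.5 FPKM in FGL1-OE 3 and at most 7.62 FPKM elsewhere, and IER2-201 was above 0 only in FGL1-OE 1.

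DUSP1-201, DUSP4-201 and IER3-202 were the 3 of 14 transcripts with every FGL1-OE library above every NC library, against 4.65% of all transcripts tested. DUSP4-201 measured 11.3, 10.4 and 11.2 FPKM in NC and 13.3, 13.2 and 13.8 FPKM in FGL1-OE. For PHLDA1, the transcript PHLDA1-202 held most of the signal, 5.93 to 14.5 FPKM in NC and 7.41 to 12.9 FPKM in FGL1-OE. PHLDA1-201 stayed between 0.518 and 1.28 FPKM. SPRY2-202 likewise exceeded SPRY2-201 in every library, at 5.60 to 8.06 FPKM against 0.170 to 1.05 FPKM. The other listed transcripts, of DUSP5, DUSP6, SPRED1 and SPRY4, were single and overlapped between groups, as did those of IER2, PHLDA1 and SPRY2 and IER3-201.

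Sequence features of the most abundant listed transcript were not used to choose the genes. ATTTA, the DNA form of the AU-rich pentamer, occurred 4.82 times per kb in IER3 (6 in 1244 bases), 3.34 times in SPRED1, 2.44 in PHLDA1, 1.98 in DUSP1, 1.82 in SPRY4, 1.42 in SPRY2, 1.08 in DUSP4 and 0.455 in DUSP6. It was absent from DUSP5 and IER2. The median was 1.62 per kb for the 10 genes and 0.899 for all genes tested, of which 2.14% held 4 per kb or more. ATTTA was counted over the whole transcript, and message stability was not measured. IER3 had the most per kb and SPRED1 came next, and a link to the differences between groups was not tested. GC content ran from 38.9% (SPRED1) to 61.7% (IER2). In GENCODE v29 the whole 3106 bases of DUSP1 overlap an antisense gene, AC022217.3, and IER3 overlaps IER3-AS1 over 394 bases. DUSP6, SPRY4, IER2 and PHLDA1 also have antisense partners, whereas DUSP4, DUSP5, SPRY2 and SPRED1 have none. The library kit was stranded, but whether counting used strand was not stated, and reads of these genes and their partners may then not be told apart.

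Other genes of the pathway were described from 9 lists of 95 genes, 84 of which were tested. The lists were drawn up with earlier results of these data known, so nothing was read from their counts and shares. None of the 84 had an adjusted p under 0.05 in limma; 3 were higher and 0 lower at an unadjusted p under 0.05, which is 3.57%, beside 1.21% of all genes higher (in an ordinary linear model, 2 list genes beside 374 of all genes in either direction). Their median log2 difference was 0.060, and 55 were positive. The RAS to ERK core, the cascade itself, had a median of 0.026 over 20 genes, from -0.70 for the adaptor GRB2 to 0.27 for the exchange factor SOS1. None of it had an unadjusted p under 0.05. In the JNK, p38 and ERK5 arms (12 genes, median 0.080) the p38α kinase gene MAPK14 gave 4.41, 5.61 and 5.58 FPKM in the NC libraries, against 12.4, 6.03 and 13.1 FPKM in FGL1-OE. Its log2 difference was 0.83 (SE 0.28), with FGL1-OE 2 close to NC, and the lowest of that list was MAPK11 at -0.31.

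Closer relatives of the 10 genes, and other inhibitors, had both signs. Of the other MAPK phosphatases, 2 of 5 were positive (median -0.12, from DUSP2 at -0.23 to DUSP10 at 0.12). Of the atypical DUSP genes, 5 of 8 were positive (median 0.071, from DUSP3 at -0.66 to DUSP14 at 0.42). Of the SPRY, SPRED, IER and PHLDA relatives, 2 of 5 were positive (median -0.052, from PHLDA3 at -0.35 to PHLDA2 at 0.26). Other inhibitors of RAS and ERK were positive in 6 of 8 (median 0.050), with DAB2IP lowest at -0.16 and LZTR1 highest at 0.16. None of these 4 lists held a gene with an unadjusted p under 0.05 in limma.

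Other transcriptional targets of ERK held the other two such genes. EGR1, an immediate early zinc finger factor, gave 12.7, 15.3 and 12.0 FPKM in the NC libraries, against 31.6, 36.3 and 29.7 FPKM in FGL1-OE. Its libraries did not overlap, and the log2 difference was 1.23 (SE 0.16), with unadjusted p = 8.5e-05 and Benjamini-Hochberg adjusted p = 0.294 in limma. FOS, a subunit of AP-1, gave 0.966, 1.43 and 0.786 FPKM in the NC libraries, against 3.72, 3.57 and 2.33 FPKM in FGL1-OE. Its log2 difference was 1.03 (SE 0.20), with an adjusted p = 1.00 in limma. The list had 13 of 15 positive genes and a median of 0.13, with KLF6 lowest at -0.78. Regulators of AU-rich decay were positive in 6 of 6 (median 0.21, from KHSRP at 0.039 to ZFP36L1 at 0.31), beside 53.7% of all genes tested. NC 1 was the lowest library for all of them but KHSRP. ZFP36L1 was at 9.82 FPKM in NC 1, against 25.3 and 18.4 FPKM in NC 2 and NC 3. Heat shock genes were positive in 2 of 5 (median -0.019, from HSPA1B at -0.035 to HSPA8 at 0.23), and HSPA1B shares reads with its near-identical copy HSPA1A.

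**Figure D5:**
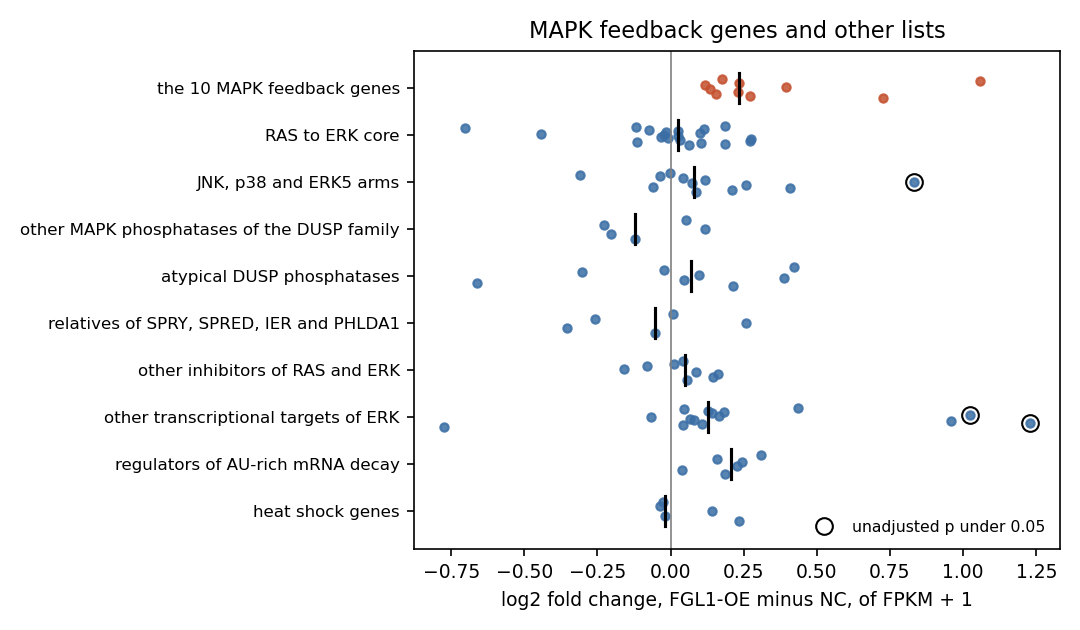
Log2 fold change of FPKM + 1 (FGL1-OE minus NC) of the 10 MAPK feedback genes and of the genes of 9 other lists, with 1 point per gene, a black bar at each median and a ring at an unadjusted p under 0.05 for list genes. The median was 0.23 for the 10 genes and between -0.12 and 0.21 for the lists, and the ringed genes were MAPK14, FOS and EGR1.

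The 10 genes followed their mean profile to different degrees. The mean of their standardised log2(FPKM + 1) was -1.26, 0.089 and -0.41 in NC and 0.41, 0.60 and 0.58 in FGL1-OE. Correlations of single genes with that mean over the 6 libraries ran from 0.387 for IER2 to 0.918 for SPRY4. Each gene is itself part of the mean, which raises its correlation. The genes outside the 10 with the most similar profile were CINP (r = 0.998), ADAMTS16 (0.996), MRPL47 (0.993), HBEGF (0.993) and IL6 (0.993), over 6 libraries from 2 groups and without a p-value. HBEGF, a ligand of EGFR, gave 2.61, 4.44 and 3.68 FPKM in the NC libraries, against 5.24, 5.54 and 5.10 FPKM in FGL1-OE. IL6, an inflammatory cytokine, gave 7.90, 17.4 and 13.0 FPKM in the NC libraries, against 21.1, 21.5 and 20.4 FPKM in FGL1-OE. HBEGF and IL6 were lowest in NC 1 and higher in every FGL1-OE library than in any NC library, as were CINP, ADAMTS16 and MRPL47. The mean profile has this pattern and they were picked for likeness to it, so nothing was read from the match.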

How the data were processed

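Poly(A) RNA of 6 TE1 libraries was sequenced, with groups set by the labelled genotype. The authors deposited FPKM values per library for genes and transcripts. The submitters' processing notes name StringTie and GRCh37, whereas the aligner, the annotation and versions are not given in the sources used here. Deposited columns of the authors' own comparison (fold changes, p-values, q-values and group means) were not used. Depth is unknown, since FPKM values showed no whole-read steps. Genes averaging 0.5 FPKM or more across all 6 libraries were tested on log2(FPKM + 1), a pseudocount of 1 that understates changes of low genes. The test was two-sided and used lmFit and eBayes of limma 3.58.1 (R 4.3.3) and Benjamini-Hochberg adjustment over all genes. The fit was tested on simulated data with independent normal noise per gene and 200 changed genes. That noise lacks the GC trend between libraries seen here, so it does not speak to that trend. Transcript features came from GENCODE v29 (GRCh38), where 99.6% of transcripts matched by identifier, and promoters from RefSeq (GRCh38.p14). The 10 genes and all lists were chosen with earlier results of these data known. Named list genes were those with an unadjusted p under 0.05 and the highest and lowest difference of each list, and the 5 genes most similar in profile. Alternatives covered the pseudocount, filter, scaling, replicate block, linear model, transcript sums, each library left out and, added after seeing the data, a GC correction.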

Additional observations from a re-analysis of the deposited data

How the results depend on the processing

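FGL1 stayed called under all alternatives run. Of 139 values of single MAPK feedback genes under alternatives, 4 were negative. These were IER2 without NC 1, FGL1-OE 2 or FGL1-OE 3 and PHLDA1 without NC 1. In all, 138 moved by less than the replicate spread, but this count is no sign of stability. Leaving out 1 of 3 libraries cannot move a value by more than that spread, and the replicate block cannot move it at all. The median of the 10 genes (0.23) ranged from 0.072 without NC 1 to 0.35 without NC 2 when single libraries were left out, and the number without overlap (3) from 3 to 7, while the share of all genes without overlap in either direction (7.15%) ranged from 10.5% to 42.8%. SPRY4 gave no value under a filter of 1 FPKM and was 1.06 with a pseudocount of 0.1. Genes called (1) were 2 with an ordinary linear model, 2 with the GC trend removed, and 1 to 7 when single libraries were left out (7 without NC 2). List genes at an unadjusted p under 0.05 (3) were 8 with the GC trend removed, when 726 of all genes passed, and 2 to 22 when single libraries were left out (22 without NC 2), when 2618 of all genes passed instead of 242. Transcripts called (5) were 29 with a pseudocount of 0.1, 3 with an ordinary linear model and 1 to 28 when single libraries were left out (28 without NC 2, 2 without NC 3, 1 without FGL1-OE 2 or FGL1-OE 3). With the replicate block, genes called remained 1 and transcripts called were 0. Same-numbered libraries deviated together with r = 0.345, 0.282 and -0.0614, and the other pairs ran from -0.37 to 0.136. The same-numbered values were not over 0.1 in every pair. With 3 libraries per group, this cannot decide whether same-numbered libraries were paired. Leaving out 1 library leaves 3 against 2, so a gene without overlap stays without overlap and others can only join. The cause of the other changes between settings was not tested. Other scalings moved the median of all genes by less than 0.1. The unknown depth leaves low genes such as SPRY4 and DUSP6 without a counting interval.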
